A study of Saccharomyces cerevisiae with 16 samples.

Results

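The measurements described here come from the msn2 msn4 double mutant of budding yeast, Saccharomyces cerevisiae, exposed to potassium hydroxide for 10 min. They fill 4 of the 16 two-colour arrays of the series, chosen by their labels (strain MCY5278, KOH, 10 min). Strain MCY5278 carries msn2::kanMX4 and msn4::hphMX4, so both genes are disrupted in every cell. It is a single strain, which limits it as a model of the 2 deletions. The comparison strain is wild-type W303-1A, and both strains were grown in the rich medium YPD. In each strain KOH at 20 mM was applied for 10 or 30 min, and each array set that culture against the same strain given KCl at 20 mM for the same time. A log ratio therefore describes the response to alkali at equal added potassium within 1 strain and time, and never the mutant directly against the wild type. Each of the 4 groups holds 4 arrays, and the labels state 2 biological replicates per condition with the dyes exchanged. They do not say which arrays share an RNA extract, so arrays were the units here and the p-values are likely too small.

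Msn2 and Msn4 are related zinc finger proteins. They recognise a short promoter sequence, the stress response element (STRE), and switch on a general stress programme that includes genes of trehalose and glycogen storage, chaperones and antioxidant enzymes. A rise of external pH weakens the proton gradient that drives nutrient uptake across the yeast plasma membrane, and it also lets calcium into the cell. Calcium activates the phosphatase calcineurin, which sends the transcription factor Crz1 into the nucleus. The mutant shows which parts of the early response to alkali are present without Msn2 and Msn4.

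The arrays of the mutant at 10 min are numbered 1 to 4. The KOH sample carried Cy3 on arrays 1 and 4 and Cy5 on arrays 2 and 3. They differed in how many of the 6174 features had a value, with 2073 on array 1, 3351 on array 2, 4183 on array 3 and 5038 on array 4. Pairwise correlations between them over shared features ran from r = 0.759 to r = 0.848, and pairs of opposite dye were no exception. All values below are log2 ratios of KOH over KCl after the median of each array was set to 0. Base 2 and this direction are the likely reading of the deposited numbers, though not stated with them. An error after ± is the standard error of the fitted value, and a gene rose or fell where its adjusted p was below 0.05. MSN2 itself stood at -0.23, -0.35, -0.25 and -0.25 on arrays 1 to 4, and MSN4 had values on arrays 3 and 4 only, of 0.07 and -0.04. Since both channels hold mutant RNA, these ratios do not test the deletions. MSN2 had a value on all 4 arrays although the gene is disrupted in this strain, and what was measured there was not tested.

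Of 3042 genes with values on at least 3 of the 4 arrays, 565 rose (18.6% of those tested) and 544 fell (17.9%), together 36.5%. The median over all tested genes was 0.01, against 0.71 for the genes that rose and -0.73 for those that fell. A list whose count of rises or falls lies near these shares does not stand apart from the rest of the genes. The balance of rises and falls depended on the zero point of the arrays. Values as deposited gave 472 rises and 629 falls. Arrays centred on genes with values on all 16 arrays gave 693 and 522. At least 4-fold changes comprised 44 rises and 13 falls in the direction used here, and would comprise 13 rises and 44 falls if the ratios ran the other way. At least 8-fold changes comprised 19 rises and 0 falls. Of the 1109 genes that passed, 1080 had the same sign on every array that measured them. Leaving out 1 array at a time gave 302 to 413 rises and 306 to 473 falls, partly because fewer genes then had values on 3 arrays. Without array 2 the counts were 302 and 324, without array 3 they were 345 and 328, and without array 4 they were 303 and 306. The array titles fall in 2 number series, and array 4 alone carries the second in this group. Arrays of the first series gave 296 rises and 314 falls among 1927 genes. These are bulk cultures, so fewer cells carrying a transcript and less of it per cell cannot be told apart.

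The largest rise was that of BOP2, a gene of unknown function, with 6.56, 5.52, 5.57 and 5.29 on arrays 1 to 4. Its fitted value of 5.74 ± 0.21 is a 53.3-fold rise (adjusted p = 2.1e-12). NCE103, which encodes carbonic anhydrase, stood at 4.41, 4.56, 4.81 and 4.10, a fitted 4.47 ± 0.22. HXT2, a high-affinity glucose transporter, stood at 3.32, 3.34, 4.89 and 4.48, so arrays 3 and 4 lay above arrays 1 and 2. The uncharacterised genes YOR385W and YMR316C-A rose by 4.30 ± 0.18 and 4.25 ± 0.40. CIT2, the peroxisomal citrate synthase, was even across arrays at 3.44, 3.12, 3.55 and 3.39, with a fitted 3.37 ± 0.14. The largest falls belonged mostly to ribosome assembly and are given with that group.

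**Figure D1:**
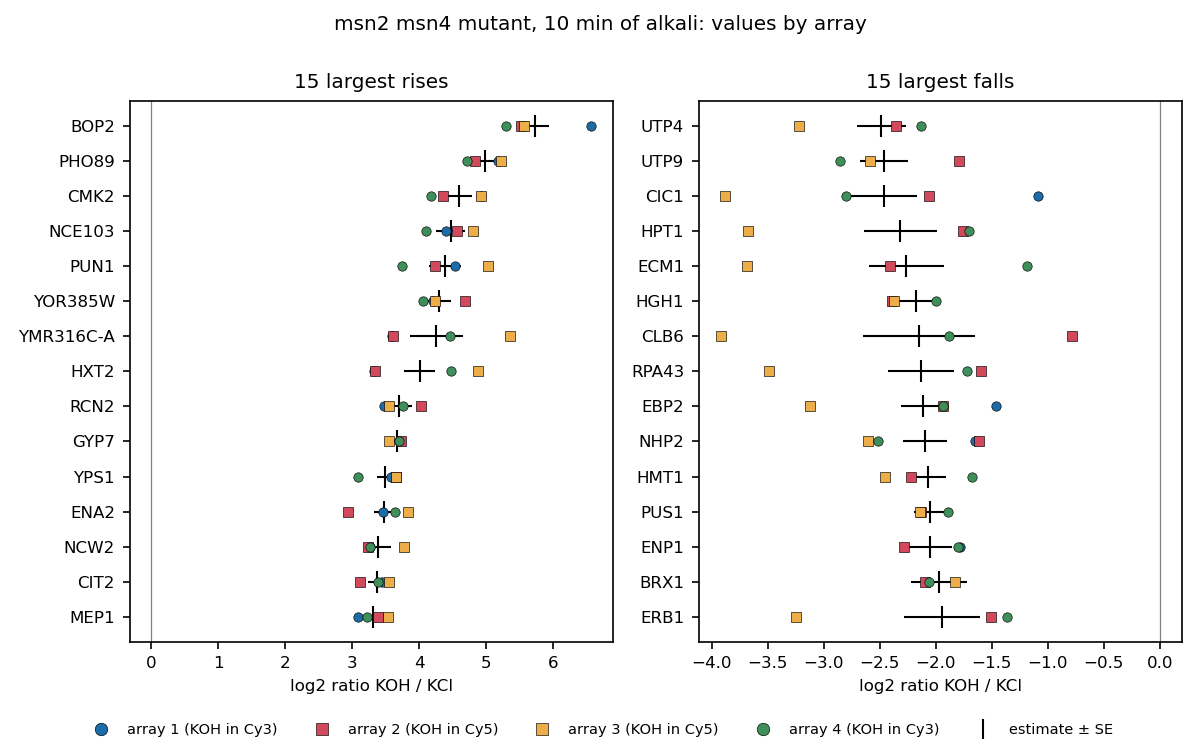
Log2 ratio of KOH over KCl on each array of the mutant at 10 min (circles, KOH in Cy3; squares, KOH in Cy5) for the 15 largest rises and the 15 largest falls that had 1 sign on all measured arrays; black marks give the fitted value ± SE. The rises lie between 3.31 and 5.74, and several falls, among them CIC1, HPT1 and CLB6, are lowest on array 3.

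The targets of calcineurin and Crz1 were the list with the highest median. All 12 tested members, of 14 listed, rose and 0 fell, with a median of 3.48, compared with the share of 18.6% of all tested genes that rose. The list was written with earlier results of these data known, so its count and rank are no independent support. Medians of the list by array were 3.47, 3.65, 3.55 and 3.43. PHO89, the sodium-coupled phosphate transporter of the plasma membrane, led with 5.17, 4.84, 5.22 and 4.71 and a fitted 4.99 ± 0.20 (adjusted p = 3.6e-12). CMK2, a calmodulin-dependent protein kinase, stood at 4.92, 4.35, 4.93 and 4.18, a fitted 4.60 ± 0.20 or 24.2-fold. PUN1, a plasma membrane protein, reached 4.39 ± 0.24. Both regulators of calcineurin itself rose, RCN2 by 3.70 ± 0.20 and RCN1 by 2.16 ± 0.19. GYP7, an activator of a Rab GTPase, was the most even of the list, with 3.69, 3.73, 3.55 and 3.69. ENA2, a P-type sodium pump, stood at 3.47, 2.94, 3.84 and 3.63, but the probes for the near-identical ENA genes may not separate them. ENA1 had a value on array 4 only, of 3.00. Calcium pumps rose less, with PMC1 of the vacuole at 2.19 ± 0.15 and PMR1 of the Golgi at 0.91. In the wider list of calcium signalling and transport, 10 of 16 tested members rose and 0 fell, against 18.6% of all tested genes that rose. The 2 lists overlap, with CMK2 and RCN2 among the members of both. Rises in the wider list included CMK1 at 1.14, the calcium channel gene YVC1 at 0.68 and the regulatory calcineurin subunit CNB1 at 0.60. Among the genes of the catalytic subunit, CMP2 rose by 0.58, while CNA1 at -0.16 did not pass.

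Among phosphate genes 6 of 21 tested members rose and 5 fell, with a median of 0.17, against 18.6% and 17.9% of all tested genes. Apart from PHO89 the rises were small, such as SPL2, an inhibitor of low-affinity phosphate transport, at 0.84, 0.92, 1.16 and 0.78. The acid phosphatase genes PHO3 and PHO5 were below 0 on every array, with fitted values of -0.87 ± 0.20 and -0.72 ± 0.20. Whether the probes separate these 2 genes was not tested. Without array 4, PHO5 stood at -0.59 with an adjusted p of 0.0527. PHO84, the proton-coupled high-affinity transporter, stood at -1.01, -0.96, 0.02 and -0.59, which makes the fitted -0.64 ± 0.17 (adjusted p = 0.0084) rest on arrays 1, 2 and 4. It stood at -0.54 with an adjusted p of 0.0545 without array 1, and at -0.48 with an adjusted p of 0.0695 without array 2. The sodium-coupled transporter was thus above 4 on every array, and the proton-coupled transporter was at or below 0.02 on every array.

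Other transport of cations and protons was measured in part. Of 7 tested genes of sodium and potassium transport 3 rose and 0 fell, against 18.6% and 17.9% of all tested genes. The rises were ENA2, the putative potassium/proton antiporter gene KHA1 at 2.62 ± 0.26, and HAL5 at 2.42, 1.72, 1.77 and 1.92. HAL5 is a kinase gene that supports potassium uptake. Among 18 genes of proton pumps and their regulators 2 rose and 3 fell, neither a larger share than among all tested genes. PMA1, the plasma membrane proton ATPase, fell on every array, at -0.88, -0.78, -1.14 and -0.92, with a fitted -0.93 ± 0.20 (adjusted p = 0.0016). PTK2, a kinase that activates Pma1, rose by 0.91 ± 0.19. In the vacuolar ATPase, STV1 of the Golgi form rose by 0.83 ± 0.14 and VMA13 fell by 0.54.

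Of the Rim101 pathway, which signals external pH in fungi, 5 of 16 members on the array were tested. Of these 3 rose, against 18.6% of all tested genes. RIM101, its transcription factor, stood at 1.52, 0.91 and 1.16 on arrays 1, 3 and 4, and RIM20 rose by 0.57 ± 0.16. In the list of cell wall integrity, 12 of 35 tested members rose and 3 fell, against 18.6% and 17.9% of all tested genes. YPS1, a GPI-anchored aspartyl protease, stood at 3.58, 3.65, 3.66 and 3.08, and NCW2, a cell wall protein, at 3.27, 3.24, 3.77 and 3.27. CHS1, a chitin synthase, rose by 2.31 ± 0.15. GSC2, the stress-induced glucan synthase subunit, rose by 2.11 ± 0.22, while FKS1, its counterpart in growing cells, fell by 0.41 ± 0.14 (adjusted p = 0.031). The call for FKS1 did not hold without array 3 (-0.33, adjusted p = 0.138) or without array 4 (-0.39, adjusted p = 0.0894). UTR2, a wall cross-linking enzyme, stood at -0.78, -0.70, -0.65 and -0.47. The kinase gene SLT2 and the transcription factor gene RLM1 of the wall integrity pathway rose by 0.68 and 0.67.

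Most tested STRE genes still rose in the strain without Msn2 and Msn4. Of 28 tested members of the list of Msn2/Msn4 targets, 20 rose and 0 fell, against 18.6% and 17.9% of all tested genes. Their median was 0.81, with medians by array of 0.97, 0.82, 1.04 and 0.73. The list was written with earlier results of these data known. The vacuolar protease gene PRB1 led with 3.10, 3.08, 3.25 and 2.67. XBP1, a transcriptional repressor, stood at 1.85, 1.79 and 2.54 on arrays 2 to 4. YAK1, a kinase that restrains growth, and GLK1, glucokinase, rose by 1.77 ± 0.13 and 1.76 ± 0.15. Trehalose synthesis was represented by TPS1 at 1.36, 1.22, 1.21 and 1.06 and by TPS2 at 0.91, 0.67, 0.80 and 0.37. Without array 1, TPS2 stood at 0.55 with an adjusted p of 0.0764. GLC3, the glycogen branching enzyme, stood at 2.24, 1.42 and 1.32 on arrays 1, 3 and 4. Among those that did not pass, GSY2, a glycogen synthase, was at -0.15 ± 0.25, and CTT1, the cytosolic catalase, stood at -0.12, 0.07, -0.20 and -0.32. HSP12, a much used STRE marker, had no value on any of the 4 arrays. Of the 52 listed genes 24 had values on fewer than 3 arrays (19 on 1 or 2 arrays, 5 on none), so the counts describe the better measured part. In the wild type at 10 min 39 of the listed genes were tested.

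The difference between the strains was tested in the same fit, as the mutant's log ratio minus that of the wild type at 10 min. It passed for 23 of 2361 genes (0.974%), of which 21 had a lower log ratio in the mutant (0.889%) and 2 a higher one (0.0847%). Of the 26 STRE genes with this test, 15 were lower in the mutant and 0 higher, with a median difference of -1.11. Another scaling changed the split: 20 lower and 15 higher responses passed when arrays were scaled to equal spread, and 11 and 4 after quantile normalization. PGM2, phosphoglucomutase, stood at 0.50, 1.08 and 0.70 on arrays 2 to 4 of the mutant, and at 3.85, 2.85, 4.04 and 3.12 in the wild type. The ranges did not overlap, and the difference was -2.75 ± 0.30 (adjusted p = 4.7e-05). MSC1, a gene of uncertain function, differed by -2.20 ± 0.22, with mutant arrays from 1.16 to 1.79 and wild-type arrays from 3.31 to 3.83. GLC3 differed by -2.02 ± 0.32 and HXK1, hexokinase 1, by -1.92 ± 0.21. TPS2 ranged from 0.37 to 0.91 in the mutant and from 2.40 to 3.16 in the wild type, a difference of -1.95 ± 0.27. GSY2 and STF2, which did not pass in the mutant, stood at 1.48 and 2.28 in the wild type, with differences of -1.63 ± 0.33 and -1.87 ± 0.32. HSP104, the protein disaggregase, was 0.97, 0.69, 0.68 and 0.49 in the mutant and between 1.78 and 2.59 in the wild type, a difference of -1.46 ± 0.26. TPS1 differed by -1.27 (adjusted p = 0.0013), YAK1 by -1.16 (0.0016) and GLK1 by -0.94 (0.037), each with mutant arrays below all wild-type arrays. The call for GLK1 was lost without mutant array 2, 3 or 4 (adjusted p from 0.124 to 0.175) or wild-type array 1, 2 or 3 (0.0756 to 0.107), and after quantile normalization TPS1 stood at -0.56 (0.178), YAK1 at -0.36 (0.437) and GLK1 at -0.21 (0.723). In the mutant alone, HSP104 stood at 0.58 with an adjusted p of 0.0515 without array 1.

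Beyond the STRE list, genes with a lower log ratio in the mutant included the kinase gene MRK1 (-1.50) and the mitochondrial disaggregase gene HSP78 (-1.45). Others were OSH2 (-1.18), the transcription factor gene USV1 (-1.10) and YPL247C (-0.99). NSA1, a factor of 60S subunit assembly, stood at -1.13, -1.12 and -0.52 in the mutant against 0.99, 0.96, -0.16 and 1.89 in the wild type. Its wild-type arrays were wide apart, and the difference of -1.75 ± 0.29 had an adjusted p of 0.0032. The 2 genes that responded more in the mutant were VHT1, the biotin transporter, and ARG3, ornithine carbamoyltransferase. VHT1 stood at 2.23, 1.96, 1.10 and 1.68 in the mutant and between 0.32 and 0.90 in the wild type, a difference of 1.10 ± 0.21. ARG3 stood at 2.36, 1.96, 1.92 and 1.97 in the mutant and between 0.78 and 1.39 in the wild type, a difference of 0.92 ± 0.20. Both lay above the wild type on every array, yet ARG3 passed at 0.027 and lost its call without any single array of the mutant (adjusted p from 0.0709 to 0.121). VHT1 lost its call without array 1 (0.0509) or array 2 (0.0799). ARG3 also lost it without wild-type array 1 (0.0527) or 2 (0.1). After quantile normalization the calls for MSC1, GLC3, HSP104, MRK1, OSH2 and ARG3 were also lost, with the same signs and adjusted p from 0.0767 to 0.162. Without mutant array 1, 2, 3 or 4, a total of 20, 10, 10 and 9 of the 23 genes remained past the threshold, of 22, 14, 13 and 13 that still had enough values.

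**Figure D2:**
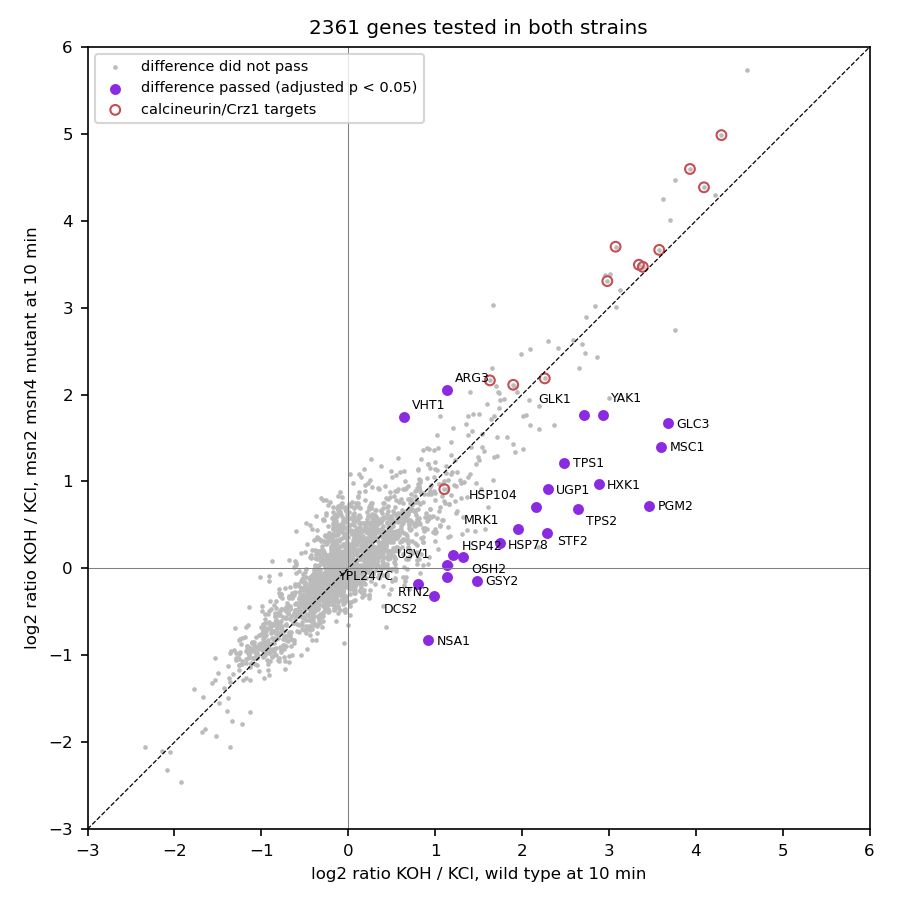
Fitted log2 ratio of KOH over KCl at 10 min in the mutant (vertical axis) against the wild type (horizontal axis) for the 2361 genes tested in both; the dashed line marks equal response, filled points the 23 genes whose difference passed, and open circles the calcineurin/Crz1 targets. The genes that differ lie below the line except ARG3 and VHT1, and the calcineurin/Crz1 targets lie near it.

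The calcineurin/Crz1 list gave 0 differences between the strains among 12 genes by limma's test, and its median was 3.21 in the wild type against 3.48 in the mutant. That no difference passed does not show equal responses: PHO89 stood at 4.99 in the mutant and 4.29 in the wild type. Of 454 genes that rose in the mutant and were tested in the wild type, 305 also rose there and 0 fell. Of 424 that fell in the mutant, 367 also fell in the wild type and 1, NSA1, rose.

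In carbon metabolism all 4 tested genes of hexose phosphorylation rose, against 18.6% of all tested genes. EMI2 rose by 1.87 ± 0.20, GLK1 by 1.76, HXK1 by 0.97 and HXK2 by 0.60. Among 11 hexose transporters and sensors 3 rose and 1 fell, a count of rises near the 18.6% of all tested genes. HXT7, a high-affinity transporter, stood at 1.11, 0.92, 1.74 and 1.58, although probes may not separate it from HXT6. HXT6 itself was tested and did not pass, except after quantile normalization, at 1.04 (adjusted p = 0.0302 by limma's test). HXT4 was uneven, with -0.40, 0.69 and 1.34 on arrays 2 to 4 and a fitted 0.68 ± 0.23. Of 7 tested genes of glucose-repressed metabolism 5 rose, against 18.6% of all tested genes. ALD4, mitochondrial aldehyde dehydrogenase, stood at 2.11, 2.30, 3.42 and 2.67, and GUT2, mitochondrial glycerol-3-phosphate dehydrogenase, rose by 1.29 ± 0.22. The invertase gene SUC2 rose by 0.70 ± 0.22 and the repressor gene MIG1 by 1.09 ± 0.23. Another 21 members of that list had values on 1 or 2 arrays and were not tested. Of these 13 were above 0 on every array that measured them, 7 were below 0 on every such array, and 1 was neither. Named after their values were seen, those high on arrays 3 and 4 included ACS1 for acetyl-CoA synthetase at 2.54 and 3.57, and the activator gene CAT8 at 2.43 and 2.06, while PCK1, of gluconeogenesis, stood at -0.505 on array 4.

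In glycolysis and fermentation 2 of 25 tested genes rose and 4 fell, with a median of -0.26. Neither share was larger than among all tested genes (18.6% and 17.9%). ALD6, cytosolic aldehyde dehydrogenase, stood at 1.55, 1.87, 2.32 and 1.29, while the pyruvate decarboxylase genes PDC5 and PDC6 fell by 0.55 and 0.93. In the TCA cycle and its feeders 4 of 20 rose and 2 fell, against 18.6% and 17.9% of all tested genes, so the list did not stand apart by its count of rises. PYC1, a pyruvate carboxylase, stood at 2.85, 2.52, 2.41 and 2.09, with a fitted 2.47 ± 0.16, and its relative PYC2 at 0.13 did not pass. CIT1, the mitochondrial citrate synthase, rose by 0.96 ± 0.18. In the list of the carnitine shuttle and retrograde response, which links mitochondria to the nucleus, 4 of 11 rose, against 18.6% of all tested genes. These were CIT2, the carnitine transporter gene AGP2 at 2.58 ± 0.18, DLD3, a retrograde target, at 1.80, 1.49, 1.56 and 1.60, and the regulator gene RTG3 at 0.93. The alternative NADH dehydrogenase gene NDI1 rose by 0.84 ± 0.16, among 3 rises in 18 respiratory genes, which is also near the share over all genes.

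In the list of stress and starvation kinases and their partners 5 of 16 tested genes rose and 2 fell. Among 12 regulators of Snf1 and glucose repression 4 rose and 0 fell. Over all tested genes 18.6% rose and 17.9% fell. GPA2, the G protein alpha subunit of the glucose-sensing branch of the cAMP pathway, stood at 3.02, 3.11, 2.99 and 2.90, a fitted 3.00 ± 0.15 or 8.02-fold. It was 1 of 2 rises among 8 tested genes of that pathway, a count near the 18.6% of all tested genes. GIS1, a transcription factor active after nutrient loss, rose by 1.28 ± 0.20, and IGO1, which acts with it in quiescence, stood at 1.03, 1.28 and 1.76 on arrays 1 to 3. HOG1, the osmotic stress kinase, rose by 0.54. WHI2 fell by 0.67 ± 0.16. In glycerol metabolism 4 of 7 tested genes rose, against 18.6% of all tested genes. GPD1, the main glycerol-3-phosphate dehydrogenase of osmotic stress, rose by 1.05 ± 0.15.

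Genes of sulphur assimilation and of arginine synthesis rose more often than the tested genes at large. In methionine and sulphur assimilation 11 of 24 tested genes rose and 0 fell, against 18.6% and 17.9% of all tested genes. SUL1, a sulphate permease, stood at 3.01, 2.76 and 3.36 on arrays 2 to 4, and MMP1, the S-methylmethionine permease, at 1.86, 1.62, 2.40 and 2.26. MET14, adenylylsulphate kinase, rose by 1.75 ± 0.12, while the S-adenosylmethionine synthetase genes SAM1 and SAM2 did not pass, both at -0.33. With any of arrays 2, 3 or 4 left out, 4 or 5 of the 14 or 15 sulphur genes then tested rose. Of 9 tested genes of arginine and ornithine synthesis 8 rose, led by ARG3 and by ARG1 at 1.60, 1.87, 1.28 and 0.71. The exception was ARG82 at -0.28, an inositol polyphosphate kinase gene. In the other amino acid families 5 of 41 tested genes rose and 5 fell, neither a larger share than among all tested genes. Their median was -0.01, with TRP4 at 1.12 and LYS4 at -1.06. The proline genes PUT1, proline oxidase, and PUT4, the permease, rose by 2.90 ± 0.28 and 1.39 ± 0.12.

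The 3 ammonium permeases moved apart. MEP1 stood at 3.08, 3.39, 3.53 and 3.22, whereas MEP2 was at -0.37, -0.79 and -0.61 on arrays 1, 2 and 4 and MEP3 at -0.75, -0.90 and -0.60 on arrays 2 to 4. Of 14 amino acid and peptide permeases 5 rose and 3 fell, against 18.6% and 17.9% of all tested genes. BAP2, for branched-chain amino acids, rose by 1.25 ± 0.16, and OPT2, an oligopeptide transporter, fell by 1.09 ± 0.22. SNZ1, of vitamin B6 synthesis, stood at 2.84, 2.41, 2.50 and 2.16. The biotin regulator gene VHR1 stood at 1.98, 1.83 and 2.11 on arrays 2 to 4, beside its target VHT1.

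In iron uptake and use 4 of 18 tested genes rose and 1 fell, against 18.6% and 17.9% of all tested genes. ISU1, a scaffold for iron-sulphur clusters, stood at 2.15, 1.98, 2.22 and 1.76, and MRS4, a mitochondrial iron carrier, rose by 1.01 ± 0.13. FRE1, the ferric and cupric reductase of the plasma membrane, was below 0 on all arrays at -0.83, -1.33, -0.87 and -0.70. CTR1, the high-affinity copper transporter, fell to -0.70, -0.79, -0.59 and -0.73, while CUP2, a copper-responsive activator, stood at 0.41, 1.29 and 1.55 on arrays 2 to 4. Of 8 zinc genes 0 rose and 3 fell, against 18.6% and 17.9% of all tested genes. IZH1 fell by 1.35, the transporter gene ZRT2 by 0.77 and ZRC1, a vacuolar zinc transporter gene, by 0.59.

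Of 33 tested genes of the proteasome list 14 rose, 19 did not pass and 0 fell, with a median of 0.36, against 18.6% of all tested genes that rose. The largest was RPN11, the lid deubiquitinase, at 0.69, 0.60, 0.61 and 0.78. The count depended on the zero point and the arrays: 23 rose when arrays were set to the median of genes with values on all 16 arrays, and 8 of 31 rose without array 3. Among autophagy genes and vacuolar proteases 8 of 14 rose, 6 did not pass and 0 fell, against 18.6% of all tested genes that rose. ATG1, the kinase that starts autophagy, stood at 2.68, 2.11 and 2.34 on arrays 2 to 4, and CPS1, carboxypeptidase S, at 1.60, 1.57, 1.58 and 1.30. PEP4, the protease that activates other vacuolar hydrolases, rose by 0.94 ± 0.16. Chaperones gave 5 rises and 3 falls in 27, and redox genes 4 rises and 1 fall in 27, neither with a larger share of rises or falls than all tested genes. The ribosome-associated chaperone genes SSB1 and SSB2 had opposite signs, at 0.95 ± 0.15 and -0.81 ± 0.13. SSB1 stood at 1.24, 0.71, 1.10 and 0.73 and SSB2 at -0.74, -0.49, -0.93 and -1.07, although the 2 sequences are near-identical and cross-hybridisation was not tested.

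**Figure D3:**
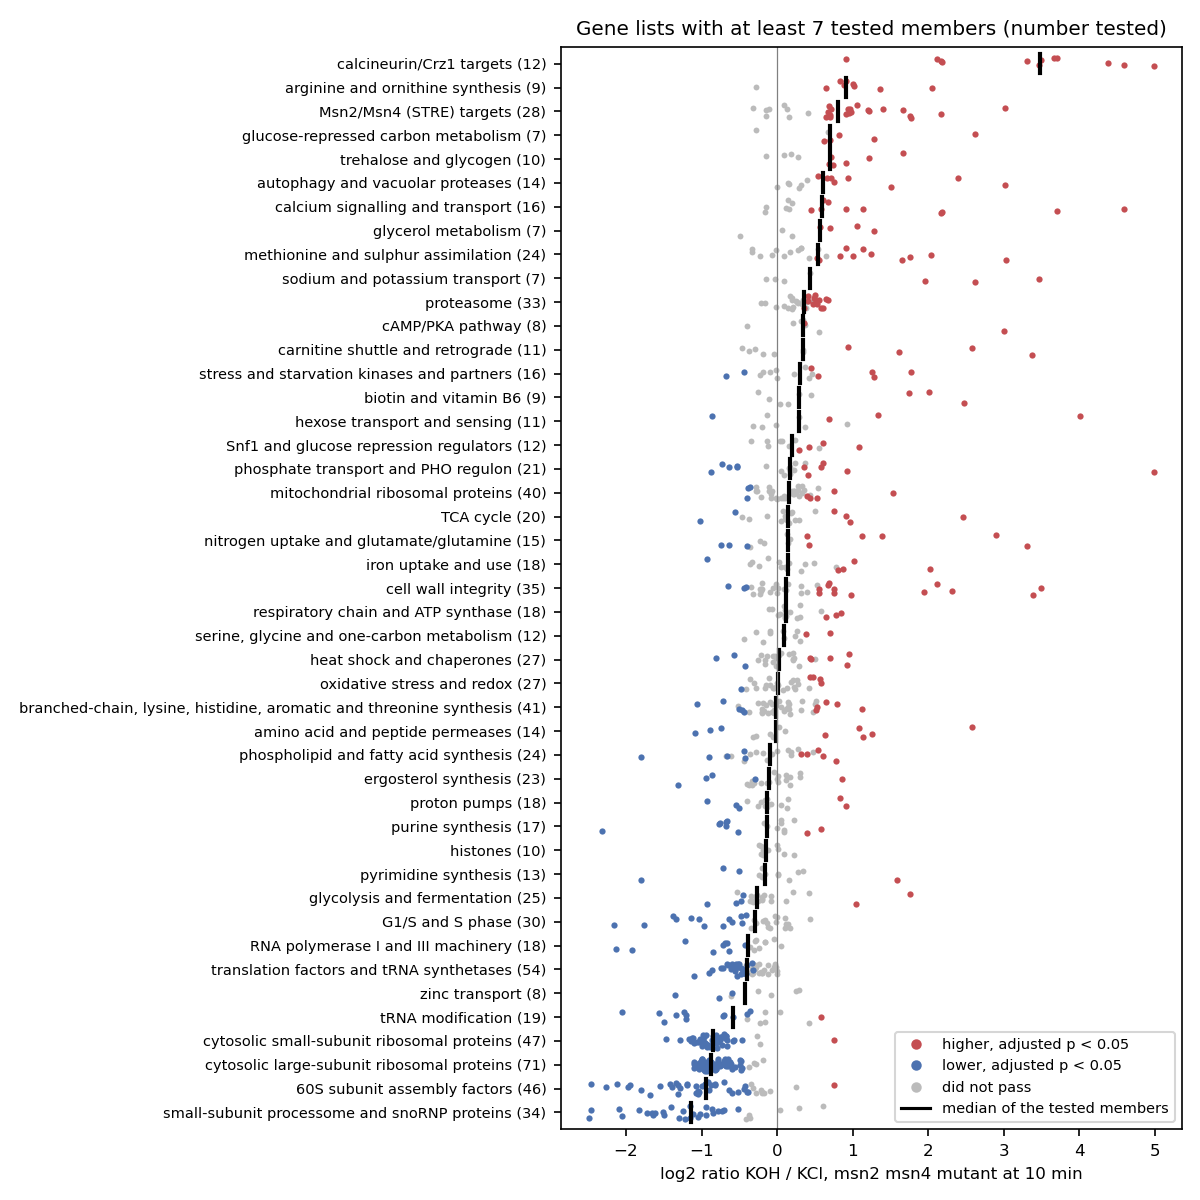
Fitted log2 ratio of KOH over KCl in the mutant at 10 min for each tested member (points) of the gene lists with at least 7 tested members, ordered by median (black bars), with the number tested in parentheses. Red and blue points passed the test; the calcineurin/Crz1 targets have the highest median, 3.48, and the small-subunit processome the lowest, -1.14.

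The falls were concentrated in the machinery that makes ribosomes. In the small-subunit processome and its snoRNPs, which process the precursor of 18S rRNA, 28 of 34 tested genes fell and 0 rose, with a median of -1.14. In 60S subunit assembly 36 of 46 fell and 1 rose, with a median of -0.93, against 17.9% of all tested genes that fell. UTP4 stood at -2.36, -3.22 and -2.13 on arrays 2 to 4, with a fitted -2.49 ± 0.22 (adjusted p = 1.7e-06), and UTP9 at -1.79, -2.58 and -2.85. CIC1, a 60S assembly factor, was spread widely at -1.09, -2.06, -3.88 and -2.80. EBP2 stood at -1.46, -1.94, -3.12 and -1.94, and NHP2, of the H/ACA snoRNPs, at -1.65, -1.61, -2.61 and -2.52. Every value of these 5 genes lies below -1, and array 3 was lowest for each except UTP9. Medians by array were -0.52, -1.10, -1.64 and -0.95 for the processome list and -0.56, -1.09, -1.12 and -0.82 for the 60S list, over the members each array measured. The part of array 3 in these sizes was not tested beyond leaving it out: 15 of 22 processome genes and 16 of 27 genes of 60S assembly then fell. The counts were 13 of 18 and 13 of 24 without array 2, and 11 of 17 and 14 of 25 without array 4. The exception in the 60S list was REH1, a cytoplasmic 60S factor, at 1.40, 0.46, 0.57 and 0.56.

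By fitted values, cytosolic ribosomal protein genes lay closer together than the assembly genes and lacked their deepest falls. Of 118 tested genes 111 fell (94.1%) and 1 rose, with a median of -0.86 and quartiles of -0.97 and -0.68, compared with -1.40 and -0.50 for the 80 assembly genes. The deepest fall was RPS9B, at -1.43, -1.09, -1.50 and -1.88, and among large-subunit genes RPL7B and RPL12B both reached -1.10. Array 4 gave the lowest median in both subunits, -1.19 and -1.14, and array 2 the highest, -0.64 and -0.67. On arrays 1 and 4 these medians lay below those of the processome and 60S lists. On array 1 they were -0.75 and -0.74, against -0.52 and -0.56. On arrays 2 and 3 they lay above them, so which group fell deeper differed between arrays. Arrays 1 and 4 had KOH in Cy3, and the part of the dye in this order was not tested. The ribosomal protein gene that rose was RPS29A, at 0.44, 0.21, 0.85 and 1.50, with a fitted 0.75 ± 0.18. Many of these genes are paired copies that probes may not separate. Mitochondrial ribosomal proteins did not follow: 5 of 40 rose and 3 fell, against 18.6% and 17.9% of all tested genes. RSM10 was highest at 1.57, 1.70, 1.57 and 1.31.

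Transcription of rRNA and tRNA and the modification of tRNA moved down as well. Of 18 tested genes of RNA polymerases I and III 9 fell and 0 rose, against 17.9% and 18.6% of all tested genes. The polymerase I genes RPA43, at -1.59, -3.49 and -1.72 on arrays 2 to 4, and RPA34, at -1.92 ± 0.19, were the deepest. RPA135, its second-largest subunit, stood between -1.02 and -0.95 on arrays 1, 2 and 4 and at -1.92 on array 3. In tRNA modification 12 of 19 fell and 1 rose, against the same 17.9% and 18.6%. PUS1, a pseudouridine synthase, stood at -2.14, -2.14 and -1.89 on arrays 2 to 4, and TRM1, a tRNA methyltransferase, fell by 1.56 ± 0.25. HMT1, the main arginine methyltransferase of nuclear RNA-binding proteins, and HGH1, a chaperone for elongation factor 2, fell by 2.07 ± 0.16 and 2.17 ± 0.22. Of 54 translation factors and tRNA synthetases 26 fell and 0 rose, with YEF3, elongation factor 3, at -1.11 ± 0.17. With 1 of arrays 2, 3 or 4 left out, 15 to 17 of 51 fell.

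Cell cycle genes of G1/S and S phase gave 13 falls and 0 rises among 30, against 17.9% of all tested genes that fell. CLB6, an S-phase cyclin, was the most uneven gene of the large falls, at -0.78, -3.92 and -1.89 on arrays 2 to 4. MCD1, the cohesin subunit, stood at -2.17, -1.54 and -1.66, and RNR1, the large subunit of ribonucleotide reductase, at -1.13, -0.75, -1.83 and -1.64. Histone genes did not move with them: 0 of 10 passed either way by limma's test, with fitted values between -0.24 and 0.22. In nucleotide synthesis HPT1, a purine salvage enzyme, stood at -1.75, -3.67 and -1.71 on arrays 2 to 4. Of the 17 purine genes in its list 7 fell and 2 rose, against 17.9% and 18.6% of all tested genes. URA7, CTP synthase, fell by 1.80 ± 0.23, while FUR4, the uracil permease, rose by 1.59 ± 0.30.

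Of 23 ergosterol genes 4 fell and 1 rose, so falls were about as frequent as among all tested genes (17.9%). ERG5 stood at -1.08, -1.44, -1.53 and -1.19 and ERG11 at -1.05, -0.69, -1.05 and -0.96, both cytochrome P450 enzymes of the pathway, and ERG3, a desaturase, fell by 0.86 ± 0.14. ARE2, which esterifies sterols, rose by 0.86 ± 0.18. In phospholipid and fatty acid synthesis 5 of 24 rose and 5 fell, near the shares of 18.6% and 17.9% of all tested genes. Among them were the choline kinase gene CKI1 at 0.78 and the elongase gene ELO3 at -0.90.

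The mutant was also measured after 30 min, on 4 other arrays. The change between the times passed for 473 of 2934 genes (16.1%), of which 178 were higher at 30 min (6.07%) and 295 lower (10.1%). After quantile normalization 201 were higher and 170 lower. Without mutant array 2, 3 or 4 of the 10 min group, 94, 94 and 89 were higher, and within the first title series 66 were higher and 239 lower. Among calcineurin/Crz1 targets 9 of 12 were lower at 30 min and 1 higher. MEP1 went from 3.31 to 0.65, a change of -2.66 ± 0.16 (adjusted p = 7.7e-09), CMK2 from 4.60 to 1.61 and GYP7 from 3.67 to 1.59. PHO89, at 4.99 and 4.32, did not pass, and GSC2 went up from 2.11 to 3.36. GPA2 fell back from 3.00 to 0.79, HXT2 from 4.00 to 1.28 and PUT1 from 2.90 to 0.73. CIT2 stood at 3.37 at both times, although it was higher at 30 min after quantile normalization, by 0.90 (adjusted p = 0.0117), and SNZ1 climbed from 2.48 to 4.25.

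Of 117 ribosomal protein genes 107 were lower at 30 than at 10 min and 0 higher, against 10.1% of all genes that were lower. Their median went from -0.86 at 10 min to -1.95 at 30 min, and the median of the change per gene was -1.12. Most of the 65 assembly genes did not pass the test of the change: 9 were higher at 30 min, against 6.07% of all genes, and 1 was lower. Their medians were -0.90 and -0.44, and the median of the change per gene was 0.23. RPS9B went from -1.48 to -2.79 and RPL12B from -1.10 to -2.33, whereas UTP4 went from -2.49 to -0.97 and EBP2 from -2.12 to -0.71. After quantile normalization the change of RPL12B was -0.57 and did not pass (adjusted p = 0.106). Under that setting 170 genes in all were lower at 30 min, against 295, so the size of the ribosomal protein change depends on the scaling. HMT1, PUS1 and HGH1, among the deepest falls at 10 min, stood at -0.21, -0.20 and -0.34 at 30 min, and each change passed.

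**Figure D4:**
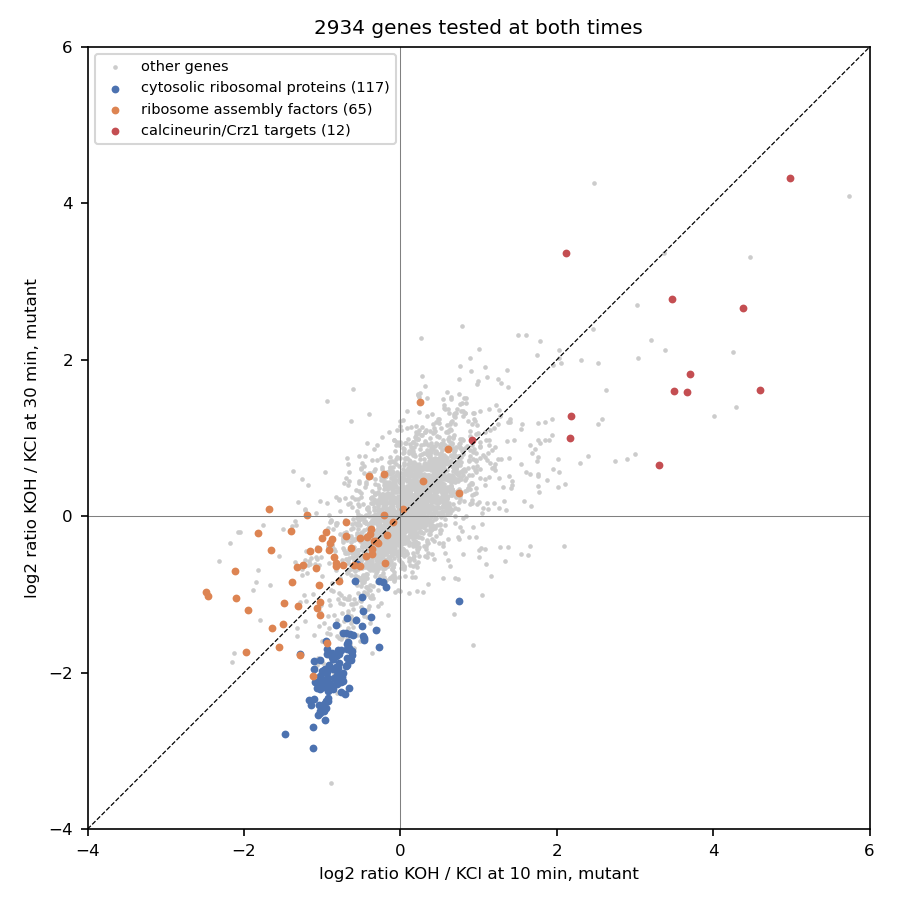
Fitted log2 ratio of KOH over KCl in the mutant at 30 min (vertical axis) against 10 min (horizontal axis) for the 2934 genes tested at both times; the dashed line marks equal values. Ribosomal protein genes (blue) lie below the line and were lower at 30 min for 107 of 117, while assembly factors (orange) lie on both sides of it.

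At both times 37 genes passed with opposite signs, and the change between the times passed for all 37. Of these 19 were higher at 10 min and lower at 30 min. BTN2, a protein sorting factor, went from 0.92 to -1.64, HXT7 from 1.34 to -0.58, HXT4 from 0.68 to -1.25, RPS29A from 0.75 to -1.09 and SUC2 from 0.70 to -0.79. The other 18 were lower at 10 min and higher at 30 min. FRE1 went from -0.93 to 1.47, a change of 2.41 ± 0.21 (adjusted p = 9e-07), CTR1 from -0.70 to 0.49, PHO84 from -0.64 to 1.21, GLN1, glutamine synthetase, from -0.39 to 1.30, and CLN2, a G1 cyclin, from -0.96 to 0.57. IRC7, a cysteine-handling lyase, went from -1.38 to 0.58. At 10 min alone GLN1 lost its call without array 2 (-0.36, adjusted p = 0.13), array 3 (-0.37, 0.106) or array 4 (-0.36, 0.125). The zinc transporter gene ZRT1, at -0.61 and not passing at 10 min, reached 1.62 at 30 min, and the serine synthesis gene SER3 went from 0.27 to 2.27, both changes passing. ERG5 and ERG11 returned from -1.31 and -0.94 to 0.18 and 0.17. PTR2, the peptide transporter, went further down, from -0.89 to -3.41, and TMA10 went from 2.10 to -0.38.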

How the data were processed

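The deposited file holds log ratios by array and open reading frame, with empty cells on every array. Per the labels' protocols, cDNA was primed with oligo(dT) and dye-labelled indirectly. How arrays were scanned, corrected and normalized, why some cells are empty, and the base of the ratios the authors deposited, read here as log2, were not given in the sources used here. Depth has no meaning for arrays, whose number limits the precision. Names came from RefSeq: 5675 of 6174 features matched.

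Each array was centred on its median. Limma 3.58.1 in R 4.3.3 fitted all 16 arrays with 1 coefficient per group and a dye term, for genes with at least 3 of 4 arrays in every group compared. P-values were Benjamini-Hochberg adjusted over all genes tested, with a threshold of 0.05. The fit was tested on simulated data. Named genes were the 15 largest rises and falls, up to 4 leading members of each of 51 lists and up to 3 against its median, the 8 largest differences each way, and a preset few. Members and lists were chosen with earlier results of these data known. Genes named for sign changes over time, for values on 2 arrays, or as further list members were chosen after their values were seen. A gene that the rule names is not reported here.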

Additional observations from a re-analysis of the deposited data

Results flagged for a closer look

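In 8 of 161 gene and group combinations with 4 values, 1 array stood far from the other 3 by Dixon's criterion, which chance gives in about 1 of 20 groups. In the mutant at 10 min these were ARG3 on array 1 (2.36, others 1.92 to 1.97), CPS1 on array 4 (1.30, others 1.57 to 1.60), NCW2 on array 3 (3.77, others 3.24 to 3.27), PEP4 on array 3 (1.27, others 0.79 to 0.86), REH1 on array 1 (1.40, others 0.46 to 0.57), RPA135 on array 3 (-1.92, others -1.02 to -0.95) and YPS1 on array 4 (3.08, others 3.58 to 3.66). In the wild type it was OSH2 on array 4 (0.94, others 1.40 to 1.47).

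The response at 10 min differed between the strains, by the test of the difference itself, for 19 of 133 genes described and tested. Over all genes tested the share was 0.974%. The described genes were partly chosen for such differences, so their count does not measure how common these are. As log2 values of the mutant minus the wild type, the lower were PGM2 -2.75, MSC1 -2.20, GLC3 -2.02, TPS2 -1.95, HXK1 -1.92, STF2 -1.87, NSA1 -1.75, GSY2 -1.63, MRK1 -1.50, HSP104 -1.46, HSP78 -1.45, TPS1 -1.27, OSH2 -1.18, YAK1 -1.16, USV1 -1.10, YPL247C -0.99 and GLK1 -0.94, and the higher were ARG3 0.92 and VHT1 1.10.

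In the mutant the response differed between the times for 78 of 153 genes described and tested, 30 of them higher and 48 lower at 30 min. The text gives both times for 32 of these 78. Over all genes tested the share was 16.1%. The described genes were partly chosen for large responses or changes over time, so their count does not measure how common changes are. As log2 values of 30 minus 10 min, those lower at 30 min were CMK2 -2.98, HXT2 -2.72, MEP1 -2.66, BTN2 -2.57, PTR2 -2.51, TMA10 -2.48, GPA2 -2.21, PUT1 -2.17, GYP7 -2.08, HXT4 -1.93, HXT7 -1.91, RPS29A -1.84, SUC2 -1.49, RPS9B -1.31 and RPL12B -1.24. Those higher at 30 min were ERG11 1.11, CTR1 1.19, GSC2 1.25, EBP2 1.41, ERG5 1.49, UTP4 1.52, CLN2 1.54, GLN1 1.70, SNZ1 1.78, HGH1 1.83, PHO84 1.85, PUS1 1.85, HMT1 1.87, IRC7 1.95, SER3 2.00, ZRT1 2.23 and FRE1 2.41. Of the remaining 46, 33 were lower and 13 higher, the lowest being YOR385W at -2.89 and YMR316C-A at -2.16.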

How the results depend on the processing

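The response of the mutant at 10 min kept its direction for every one of the 1109 genes that passed, in each alternative run in which the gene still had enough values. Counts moved more. The first title series alone gave 610 calls (296 higher, 314 lower), a fold of at least 2 gave 279 (156 and 123), and array weights gave 849 higher. Averaging pairs of opposite dyes, over all 16 pairings, gave at least 603 calls (290 and 313). Leaving out 1 array gave 609 to 886 calls, with 302 to 413 higher and 306 to 473 lower. Of the listed genes 477 passed, 299 to 410 without 1 array, 306 in the first title series and 156 at 2-fold.

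The difference between strains was the least stable count. Of 23 genes (2 higher, 21 lower in the mutant), 13 passed with the compared groups alone (0 and 13), 7 in the first title series (0 and 7), 50 with array weights (17 and 33), 35 after scaling (15 and 20) and 15 after quantile normalization (4 and 11). Genes on all 4 arrays gave 13 (11 lower), and at least 2 arrays in both dyes gave 47 (5 and 42). The higher count was 1 when arrays were centred on fully measured genes and 1 at 2-fold. Averaged dye pairs gave 6 (0 and 6) to 46 (14 and 32). Without 1 array the counts were 9 to 29, with 0 to 4 higher and 8 to 26 lower. None of the 23 changed sign in these alternatives.

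Of the 473 changes from 10 to 30 min (178 higher, 295 lower), 305 passed in the first title series (66 higher) and 239 at 2-fold (75 and 164). Quantile normalization gave 170 lower. Under it 332 of the 473 stayed past the threshold, and 2 of the 473 changed sign. Averaged dye pairs gave as few as 170 (48 and 122) and as many as 300 higher. Without 1 array the counts were 318 to 420, with 89 to 169 higher and 224 to 288 lower. Leave-one-array-out of the wild type and of the 30 min group was added after seeing the data.

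Of 162 named genes, 4 alternative values turned sign in the mutant at 10 min, none of a gene that passed. STE2 was 0.029 with the title series as a term and -0.34 to 0.021 without 1 array, and USV1 was -0.035 as deposited and -0.050 to 0.092 without 1 array. For the change over time, CIT2 was 0.0069 in the first title series, 0.035 with array weights, 0.087 as deposited, 0.90 after quantile normalization, where it passed (adjusted p = 0.0117), and -0.073 to 0.083 without 1 array. PHO89 was 0.51 after quantile normalization (0.437). Neither passed without these changes. The cause of these shifts was not tested. No paired analysis was possible because the labels number no replicates across groups. The planned count of promoter motifs was not run, since no sequences were used here. Genes with values on fewer than 3 arrays stay untested.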

Other observations

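Markers of other cell states were thinly measured in the mutant at 10 min. Of 7 MATa genes 1 was tested, STE2, at 0.57, -0.16, -1.15 and -0.03, and of 4 MATalpha genes 1 was tested, SAG1, at 0.25, 0.29, -0.21 and 0.07. Neither passed by limma's test, with fitted values of -0.19 and 0.10. Of 12 sporulation genes 2 were tested, and SPS1, a kinase of spore formation, passed at 1.85, 0.29 and 0.68 on arrays 2 to 4 with an adjusted p of 0.041. No part of these in the other results was tested.

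Of ribosome assembly genes 50 had values on 1 or 2 arrays and were not tested. On every array that measured them 48 of these were below 0, and 36 were below -1. UTP15 stood at -3.12 and -2.66 and UTP13 at -2.84 and -2.94 on arrays 2 and 4, and EMG1 at -2.88 and -2.42 on arrays 3 and 4. These are as low as the deepest tested falls, and they were named after their values were seen. Of 12 such iron genes 6 were above 0 and 4 below 0 on every measured array, and of 8 such regulators of Snf1 and glucose repression 5 and 2. TIS11, which promotes decay of mRNAs of iron-using proteins, stood at 2.07 and 2.53 and NRG1, a repressor of glucose-repressed genes, at 2.16 and 1.86 on arrays 3 and 4.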
